A study of Mus musculus with 6 samples.

Results

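The Cyp3a genes encode cytochrome P450 enzymes of the endoplasmic reticulum, and 6 of them, Cyp3a11, Cyp3a13, Cyp3a16, Cyp3a25, Cyp3a41a and Cyp3a44, were followed here in mouse liver. They were chosen by name, with earlier results of these data known. Their probes (transcript clusters of the array) were those whose annotation carries the gene's symbol. The 6 genes stand among 22180 genes that had a probe of their own on the array. Of the 6, 5 had a probe that names no other gene, and Cyp3a41a was read only through 2 probes shared with relatives. The study compared livers of male C57BL/6 mice, 8 weeks old before acclimatisation per the labels, on 6 arrays. Mice of the vehicle group (3 arrays) received vehicle for 7 days and then a high-fat diet for 6 weeks, and mice of the Vascepa group (3 arrays) received Vascepa over the same days before the same diet. Vascepa is icosapent ethyl, the ethyl ester of eicosapentaenoic acid, and the comparison asks how livers differed on the diet after that earlier dosing. Livers without the diet were not analysed here. Separate animals within a group are not stated in the labels, so the p-values may reflect technical spread only.

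CYP3A enzymes oxidise a wide range of drugs, steroids and bile acids, using electrons passed on by P450 reductase and cytochrome b5. In mouse liver Cyp3a11 is the main inducible member and is switched on by the pregnane X receptor (PXR, gene Nr1i2) and the constitutive androstane receptor (CAR, gene Nr1i3), which bind DNA with the retinoid X receptor. Cyp3a41a and Cyp3a44 are known from female mouse liver and Cyp3a16 from fetal and young liver, while Cyp3a13 is also active in the intestine.

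The RefSeq gene table of assembly GRCm38.p6 places all 6 on chromosome 5. Among protein-coding genes Cyp3a57, Cyp3a16, Cyp3a41b, Cyp3a41a, Cyp3a44, Cyp3a11, Cyp3a25 and Cyp3a59 follow each other with none between, and 121 lie between them and Cyp3a13. The 250 bases before each gene's start, from RefSeq and the same build, are shown for 5 members because they group the family by upstream sequence, which is not the transcript that a probe reads. The sequence AGGTCA, the core recognised by many nuclear receptors, is in capitals on either strand, so that TGACCT marks the opposite strand.
Cyp3a11, chr5:145879855-145880104, minus strand: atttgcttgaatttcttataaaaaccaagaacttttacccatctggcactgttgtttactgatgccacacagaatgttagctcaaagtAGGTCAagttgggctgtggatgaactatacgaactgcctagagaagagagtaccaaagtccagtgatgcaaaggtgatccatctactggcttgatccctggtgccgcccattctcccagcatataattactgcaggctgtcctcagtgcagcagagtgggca
Cyp3a44, chr5:145805875-145806124, minus strand: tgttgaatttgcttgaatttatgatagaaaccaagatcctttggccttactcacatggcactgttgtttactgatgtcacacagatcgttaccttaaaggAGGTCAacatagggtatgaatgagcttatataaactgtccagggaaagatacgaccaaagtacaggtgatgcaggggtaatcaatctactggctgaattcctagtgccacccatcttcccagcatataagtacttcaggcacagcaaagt
Cyp3a41a, chr5:145720137-145720386, minus strand: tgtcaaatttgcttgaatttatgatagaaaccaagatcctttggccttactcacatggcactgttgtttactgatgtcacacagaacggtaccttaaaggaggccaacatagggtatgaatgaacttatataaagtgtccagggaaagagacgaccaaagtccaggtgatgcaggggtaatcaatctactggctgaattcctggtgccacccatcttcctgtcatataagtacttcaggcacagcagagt
Cyp3a25, chr5:146009619-146009868, minus strand: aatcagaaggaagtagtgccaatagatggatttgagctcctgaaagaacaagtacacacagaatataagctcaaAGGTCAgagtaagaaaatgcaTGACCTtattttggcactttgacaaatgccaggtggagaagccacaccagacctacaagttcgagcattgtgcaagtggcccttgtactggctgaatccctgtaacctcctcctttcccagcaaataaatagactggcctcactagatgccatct
Cyp3a13, chr5:137921620-137921869, minus strand: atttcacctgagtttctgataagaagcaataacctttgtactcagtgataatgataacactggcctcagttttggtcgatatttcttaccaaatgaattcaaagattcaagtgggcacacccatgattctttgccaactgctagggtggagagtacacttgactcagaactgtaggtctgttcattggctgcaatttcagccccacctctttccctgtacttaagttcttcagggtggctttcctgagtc
The windows fell into groups of close relatives. Cyp3a41a and Cyp3a41b were 99.6% identical, with T222G as the sole difference (Cyp3a41a base first, counted from 1 at the 5′ end of the window). Cyp3a44 was 94.4% identical to Cyp3a41a and 92.9% to Cyp3a16. Cyp3a25 was 94.8% identical to Cyp3a59 and 88.9% to Cyp3a57, but 55.6% to Cyp3a11. Cyp3a11 was 76.6% identical to Cyp3a16 and 72.9% to Cyp3a41a, and Cyp3a13 was 52.7% identical to Cyp3a25 and 57.2% to Cyp3a11.

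AGGTCA occurred 1 time in the windows of Cyp3a11 and Cyp3a44, 2 times in opposite orientations in Cyp3a25, Cyp3a57 and Cyp3a59, and 0 times in Cyp3a13, Cyp3a16, Cyp3a41a and Cyp3a41b. The Cyp3a44 copy is interrupted in Cyp3a41a by T104C, with the Cyp3a44 base first. Of 27025 promoter windows of the same length, 13.8% held AGGTCA on either strand and 1.32% held it at least 2 times. These matches describe letters in a window and were not tested as binding sites.

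None of the 3 members with a probe of their own above the intensity filter, Cyp3a11, Cyp3a13 and Cyp3a25, passed the test between Vascepa and vehicle livers. Cyp3a11 and Cyp3a13 were lower in the Vascepa mean and Cyp3a25 was higher, and the values overlapped between groups for each. The filter kept genes whose mean over the 6 arrays was at least 2.65 on the log2 scale, which is the median probe. Over the 13493 genes that it kept, limma called 0% at a Benjamini-Hochberg adjusted p under 0.05, and 2.68% had an unadjusted p under 0.05, which none of the 3 had. Groups did not overlap in 8.24% of these genes. Differences are given as log2 values, Vascepa minus vehicle, with the standard error (SE) and 95% interval from limma, and levels of different probes were not set against each other.

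**Figure D1:**
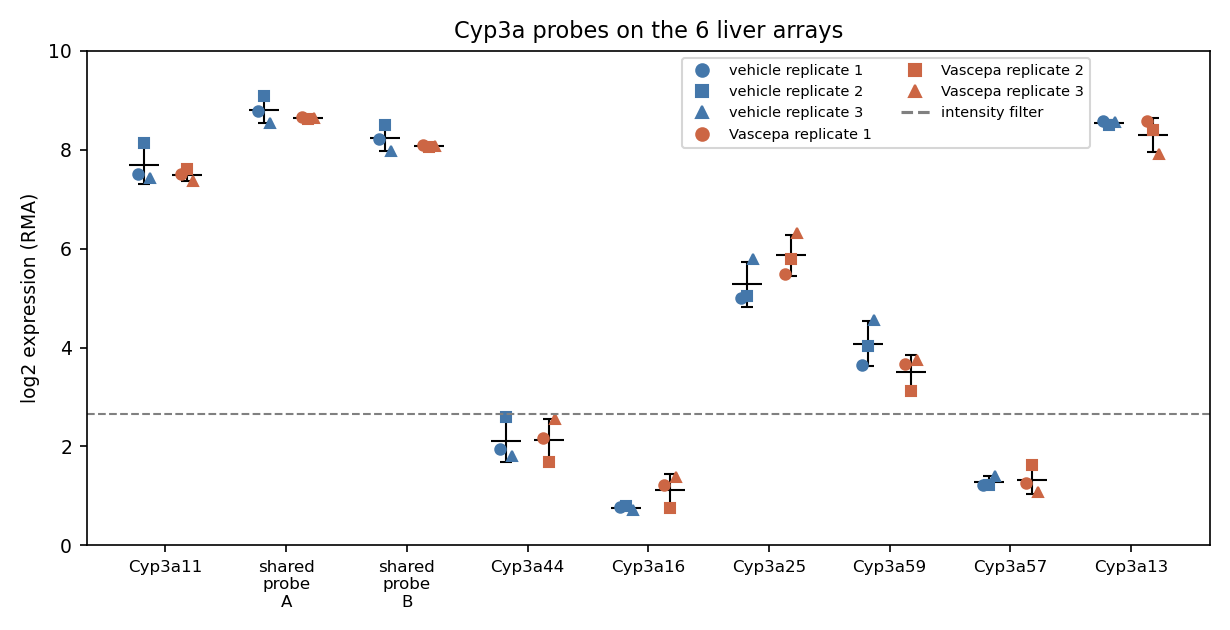
Log2 expression (RMA) of each Cyp3a probe on the 6 liver arrays, vehicle in blue and Vascepa in orange, with a marker shape for each replicate; black lines and bars are the group mean and SD (n = 3) and the dashed line is the intensity filter at 2.65. The 2 shared probes name Cyp3a11, Cyp3a41a, Cyp3a41b and Cyp3a44, and the probes of Cyp3a44, Cyp3a16 and Cyp3a57 lie under the filter.

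Cyp3a11, the main PXR-driven member, read 7.51, 8.13 and 7.43 on vehicle replicates 1, 2 and 3 and 7.50, 7.60 and 7.37 on Vascepa replicates 1, 2 and 3. Vehicle replicate 2 stood above the other 5 arrays, and the Vascepa values lay within or just under the vehicle range. The means were 7.69 ± 0.39 (SD, n = 3) in vehicle and 7.49 ± 0.12 (SD, n = 3) in Vascepa livers. The difference was −0.20 ± 0.23 (SE; limma, adjusted p = 0.976), and its interval ran from 1.66-fold lower to 1.26-fold higher. Without vehicle replicate 2 the difference was 0.024, and it was 0.062 with array weights, so the direction did not hold under either.

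The 2 shared probes each name 4 genes, Cyp3a11, Cyp3a41a, Cyp3a41b and Cyp3a44, and cannot be given to any of them. They are the only readings here that include Cyp3a41a. Probe 17455127, called shared probe A, read 8.79, 9.08 and 8.54 in vehicle replicates 1 to 3 and 8.66, 8.62 and 8.64 in the Vascepa ones. Probe 17455143, called shared probe B, read 8.22, 8.49 and 7.97 in vehicle replicates 1 to 3 and 8.10, 8.05 and 8.07 in the Vascepa ones. On both, the 3 Vascepa arrays lay close together, inside a wider vehicle range. The SD was 0.27 in vehicle and 0.019 in Vascepa livers for probe A, and 0.26 and 0.026 for probe B. Shared probe A differed by −0.16 ± 0.20 (SE) and shared probe B by −0.15 ± 0.19 (limma over 15130 probes with a gene symbol, of which 0% were called; adjusted p = 0.980 for both). The intervals reached from 1.53-fold lower to 1.22-fold higher for probe A and from 1.52-fold lower to 1.22-fold higher for probe B. Without vehicle replicate 2 the differences shrank to −0.026 and −0.022.

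The shared probes moved together over the arrays, and less closely with Cyp3a11. Over the 6 arrays probe A correlated with probe B at Pearson r = 0.999 (Spearman rho 1.00) and with Cyp3a11 at r = 0.90 (rho 0.54). Probe A correlated with the probe of Cyp3a44 at r = 0.61 (rho 0.71) and with Cyp3a25 at r = −0.71 (rho −0.77). These are descriptions over 6 arrays of 2 groups. Near-identical relatives can bind the same probe sequences, so neither shared probe is an independent measurement of Cyp3a11 or of the other, and how much each of the 4 genes gave was not tested.

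**Figure D2:**
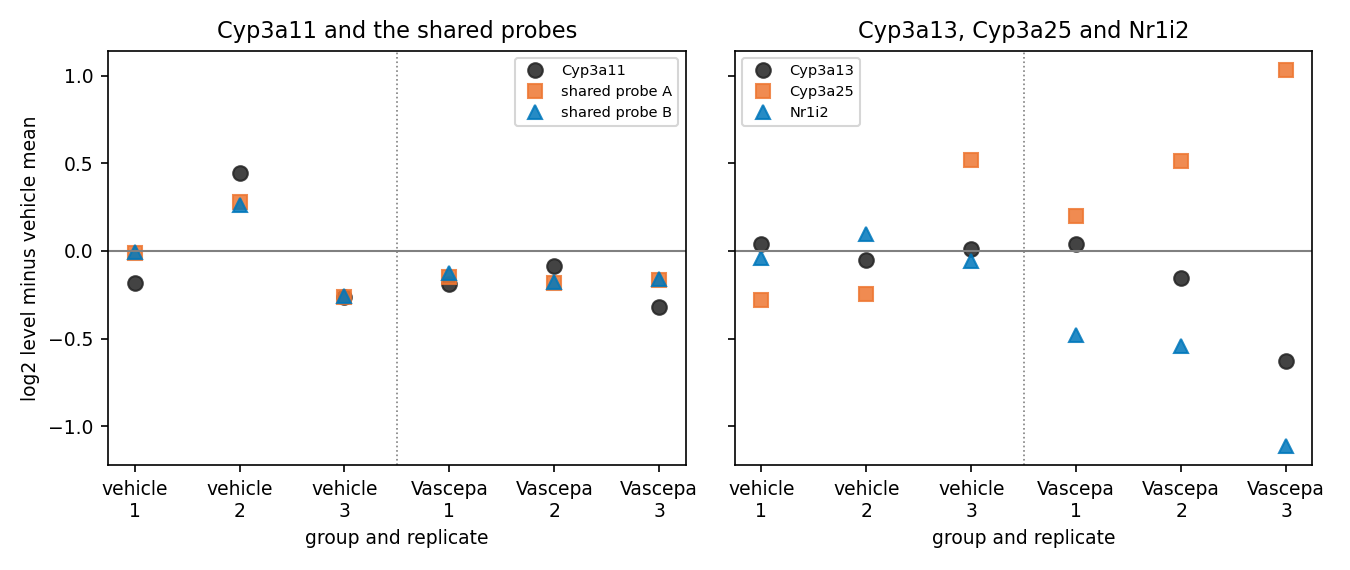
Log2 level minus the vehicle mean (vertical axis) on each array (horizontal axis) for Cyp3a11 and the 2 shared probes, left, and for Cyp3a13, Cyp3a25 and Nr1i2, right; each point is 1 array. Vehicle replicate 2 is highest for Cyp3a11 and the shared probes, while Vascepa replicate 3 is lowest for Cyp3a13 and Nr1i2 and highest for Cyp3a25.

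Cyp3a25, a hepatic member whose promoter window lies apart from that of Cyp3a11, was 1.50-fold higher in the Vascepa mean. It read 5.0, 5.04 and 5.80 in vehicle replicates 1 to 3 and 5.48, 5.79 and 6.31 in the Vascepa ones. Vascepa replicate 3 was the highest of all, and vehicle replicate 3 lay above the other 2 Vascepa arrays, so the groups overlapped. The means were 5.28 ± 0.45 (SD, n = 3) and 5.86 ± 0.42 (SD, n = 3). The difference was 0.58 ± 0.30 (SE; limma, adjusted p = 0.976), with an interval from 1.08-fold lower to 2.42-fold higher. Its unadjusted p was 0.0892 by limma, and 6.72% of the genes tested had an unadjusted p under 0.10. The difference was 0.36 without Vascepa replicate 3 and 0.84 without vehicle replicate 3, and it remained above 0 in each of the 6 fits that left out 1 array. The unadjusted p by limma was 0.0259 without vehicle replicate 3 and 0.0300 without Vascepa replicate 1, with adjusted p of 0.9998 and 0.309. In those fits 141 and 2018 of the 13493 genes had an unadjusted p under 0.05. For Cyp3a25 the unadjusted p by limma was 0.242 and 0.230 without vehicle replicates 1 and 2. It was 0.142 and 0.248 without Vascepa replicates 2 and 3.

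Cyp3a13, the member outside the cluster, read 8.58, 8.49 and 8.56 in vehicle replicates 1 to 3 and 8.58, 8.39 and 7.92 in the Vascepa ones. The vehicle arrays lay within a narrow range, and Vascepa replicate 3 stood lowest. The means were 8.54 ± 0.049 (SD, n = 3) and 8.30 ± 0.34 (SD, n = 3), a difference of −0.25 ± 0.21 (SE; limma, adjusted p = 0.976). The interval ran from 1.67-fold lower to 1.19-fold higher. Without Vascepa replicate 3 the difference was −0.057, and without Vascepa replicate 1 it was −0.39.

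Vascepa replicate 3 also stood apart in the series as a whole, with the lowest mean correlation to the other arrays, r = 0.919 against 0.948 to 0.962. Its mean level of 68 small nucleolar RNA genes was 7.36, against 5.67 to 6.82 on the other 5 arrays. Cyp3a13 ran opposite to that level over the 6 arrays, at r = −0.87 (rho −0.94), while Cyp3a11 showed r = 0.13 (rho −0.09) and Cyp3a25 r = 0.59 (rho 0.60). With the small nucleolar RNA level as a covariate the differences were −0.11 for Cyp3a13, −0.25 for Cyp3a11 and 0.45 for Cyp3a25. The part of this array-to-array variation in the Cyp3a values was not tested further.

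Cyp3a16 and Cyp3a44, known from young and from female liver, had probes of their own under the filter, and their levels in these adult males were dim. Cyp3a16 read 0.78, 0.80 and 0.71 in vehicle replicates 1 to 3 and 1.21, 0.75 and 1.38 in the Vascepa ones. Vascepa replicates 1 and 3 lay above the vehicle arrays and Vascepa replicate 2 within their range. In a fit of all 22180 genes without the filter, Cyp3a16 differed by 0.35 ± 0.20 (SE; limma, adjusted p = 0.967), with an interval from 1.08-fold lower to 1.75-fold higher. Cyp3a44 read 1.94, 2.60 and 1.81 in vehicle replicates 1 to 3 and 2.16, 1.69 and 2.54 in the Vascepa ones, with no order between the groups. It differed by 0.016 ± 0.29 (SE; limma, adjusted p = 0.996), with an interval from 1.56-fold lower to 1.59-fold higher. The sign turned with the arrays centred on their medians (−0.060) or quantile-normalized again (−0.069), with the small nucleolar RNA covariate (−0.11), with array weights (−0.24), and without vehicle replicates 1 or 3 or Vascepa replicate 3. In that fit 0% of genes were called and 3.41% had an unadjusted p under 0.05. No detection call came with the values, so whether these 2 genes were expressed was not tested.

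The remaining relatives with a probe of their own are Cyp3a57 and Cyp3a59, which flank the cluster and are not among the 6. Cyp3a59, whose promoter window is closest to that of Cyp3a25, read 3.66, 4.04 and 4.55 in vehicle replicates 1 to 3 and 3.66, 3.12 and 3.74 in the Vascepa ones. It was 1.49-fold lower in the Vascepa mean, opposite in sign to Cyp3a25, at −0.57 ± 0.28 (SE; limma, adjusted p = 0.976). The difference was −0.34 without vehicle replicate 3 and −0.38 without Vascepa replicate 2. Cyp3a57 lay under the filter on every array, between 1.08 and 1.63, and differed by 0.035 ± 0.19 (SE; limma, adjusted p = 0.985), or −0.041 with centred and −0.010 with requantiled arrays.

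**Figure D3:**
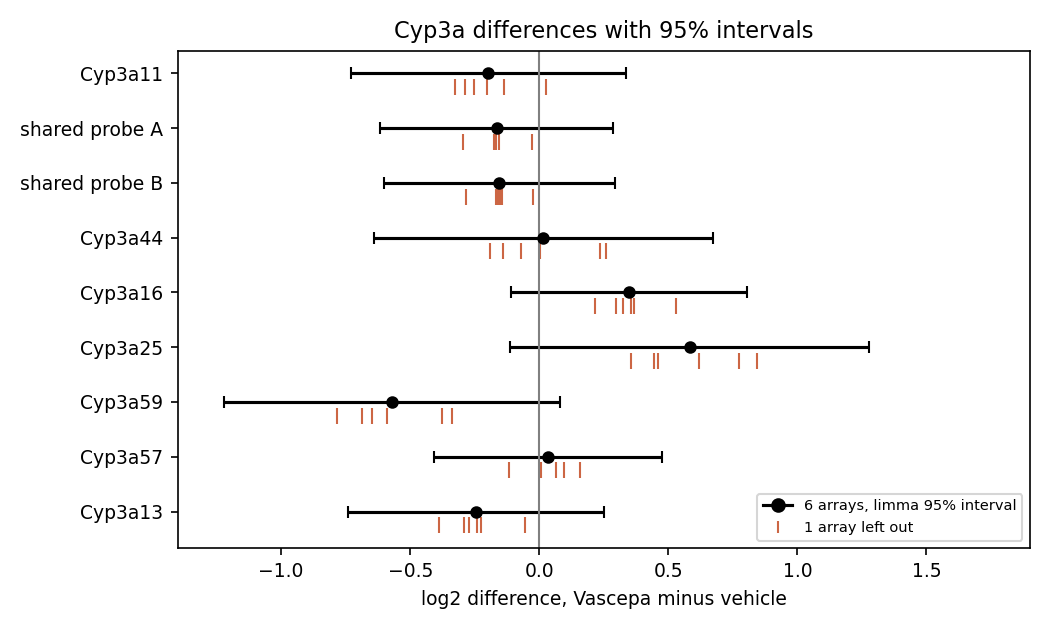
Log2 difference, Vascepa minus vehicle (horizontal axis), for each Cyp3a probe, with black points and 95% intervals from limma on 6 arrays and orange ticks for the 6 fits that leave out 1 array. Each interval includes 0, and the ticks of Cyp3a11, Cyp3a44 and Cyp3a57 lie on both sides of it.

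Among the regulators of Cyp3a genes, Nr1i2, which encodes PXR, was 1.64-fold lower in Vascepa livers. It read 7.04, 7.18 and 7.02 in vehicle replicates 1 to 3 and 6.60, 6.54 and 5.96 in the Vascepa ones. Each Vascepa array lay below every vehicle array, and Vascepa replicate 3 was lowest. Groups did not overlap in 8.24% of all genes tested, and among the 18 regulators tested only in Nr1i2. The means were 7.08 ± 0.086 (SD, n = 3) and 6.37 ± 0.35 (SD, n = 3), a difference of −0.71 ± 0.22 (SE). It missed the adjusted threshold (limma, adjusted p = 0.976), with an unadjusted p of 0.0118 by limma, and 1.64% of the genes tested were lower at an unadjusted p under 0.05. Leaving out Vascepa replicate 3 gave −0.51 and leaving out Vascepa replicate 1 gave −0.83.

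Nr1i3, which encodes CAR, read 6.94, 7.80 and 7.54 in vehicle replicates 1 to 3 and 6.74, 7.52 and 7.94 in the Vascepa ones. The groups covered nearly the same range, and the difference was −0.024 ± 0.35 (SE; limma, adjusted p = 0.994), with an interval from 1.78-fold lower to 1.72-fold higher. Its sign turned to 0.041 with quantile normalization again, to 0.30 without Vascepa replicate 1, and without vehicle replicates 2 or 3. Rxra, the shared DNA-binding partner, read 7.81, 7.08 and 7.50 in vehicle replicates 1 to 3 and 8.11, 6.91 and 6.08 in the Vascepa ones, a difference of −0.43 ± 0.47 that was 0.049 without Vascepa replicate 3. Hnf4a, a factor that hepatocytes need for P450 expression, differed by −0.38 ± 0.35, and by −0.049 without Vascepa replicate 3. Onecut1, a further liver factor, was uneven in vehicle livers, at 4.69, 5.22 and 7.34, against 7.19, 6.47 and 6.15 in Vascepa livers, a difference of 0.85 ± 0.64. None of these 4 passed (limma, adjusted p from 0.976 to 0.994).

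As a group, 16 of the 18 tested regulators were lower in the Vascepa mean and 2 higher, with 0 past the adjusted threshold by limma and 1, Nr1i2, at an unadjusted p under 0.05. Of all genes tested 60.1% were lower, 0% passed the adjusted threshold and 2.68% had an unadjusted p under 0.05 by limma. This list and those below were chosen with earlier results of these data known, so their counts are descriptions. The regulators' median difference was −0.23, against −0.063 over all genes, and it was 0.048 without Vascepa replicate 3. Relative to the vehicle mean, the median of the regulators lay at 0.23, −0.26 and −0.54 on Vascepa replicates 1, 2 and 3, and at 0.16, −0.14 and −0.0061 on vehicle replicates 1, 2 and 3.

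Genes linked to the electron supply or the heme of P450 enzymes, heme breakdown included, did not shift together. Of 6 tested, 3 were lower and 3 higher, with a median of −0.13 and 0 past the adjusted or the unadjusted threshold of 0.05 by limma. Over all genes 60.1% were lower, 0% passed the adjusted threshold and 2.68% the unadjusted one. Cyb5a, cytochrome b5, differed by 0.052 ± 0.26 (−0.024 with centred arrays), and Cyb5b, its outer mitochondrial form, by −0.53 ± 0.28. Hmox1, the heme oxygenase that breaks heme down, was 5.38, 5.27 and 5.43 in vehicle replicates 1 to 3 and 5.16, 5.12 and 4.98 in the Vascepa ones. These groups did not overlap, the sole case among the 6, and 8.24% of all genes tested did not overlap either. The Hmox1 difference was −0.27 ± 0.17 (SE; limma, adjusted p = 0.976). The reductase gene Por was not analysed here.

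No other gene tested that PXR and CAR control passed. Of 20 tested, 14 were lower and 6 higher, where 60.1% of all genes were lower. Their median was −0.15, and leaving out Vascepa replicate 3 gave −0.053 and leaving out Vascepa replicate 1 gave −0.30. By limma 0 had an unadjusted p under 0.05 in either direction, where 2.68% of all genes tested had such a p. Of all genes tested 0% passed the adjusted threshold, so the lack of a call is not particular to these targets. Gstm3, a glutathione transferase, and Abcc3, an export pump of conjugates, had the smallest p, at −0.81 ± 0.36 and −0.68 ± 0.45 (limma, adjusted p = 0.976 for both). Abcc3 was 6.16 on Vascepa replicate 3 against 7.47 to 8.25 on the other arrays, and its difference without that array was −0.15. Cyp2b10, the best-known CAR target, was uneven, at 2.41, 4.38 and 3.49 in vehicle replicates 1 to 3 and 5.07, 3.60 and 2.78 in the Vascepa ones. It differed by 0.39 ± 0.65, with −0.12 without vehicle replicate 1 and −0.24 without Vascepa replicate 1.

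**Figure D4:**
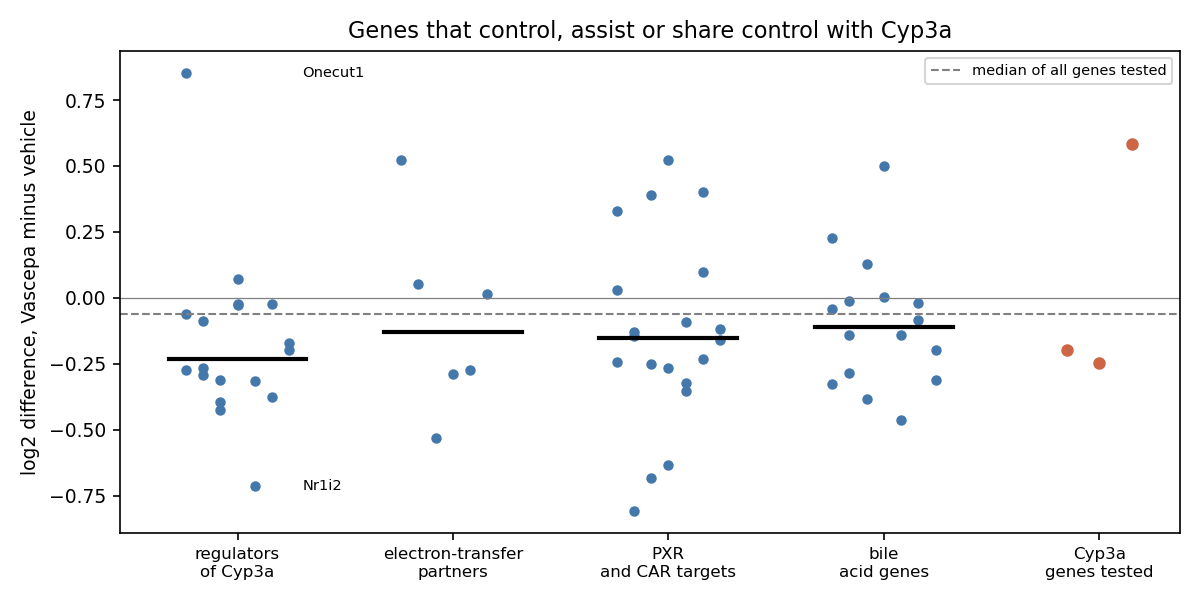
Log2 difference, Vascepa minus vehicle (vertical axis), of the tested genes of 4 lists in blue, with a black line at each list's median, and of Cyp3a11, Cyp3a13 and Cyp3a25 in orange. The dashed line is the median over all 13493 genes, −0.063; Nr1i2 at −0.71 and Onecut1 at 0.85 are the outermost regulators.

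Bile acids are both substrates of CYP3A enzymes and ligands of PXR. Of 16 genes for their synthesis, transport and control 12 were lower and 4 higher, with a median of −0.11. By limma 0 were past the adjusted or the unadjusted threshold of 0.05. This median was 0.071 without Vascepa replicate 3. Cyp8b1, the sterol 12-alpha-hydroxylase, differed by −0.46 ± 0.27 and Cyp2c70, which makes muricholic acids, by 0.23 ± 0.19. In the acute phase list, genes of the inflammatory response, during which liver P450 transcripts are known to fall, 27 of 27 were lower in the mean, with a median of −0.33. By limma 0 passed the adjusted threshold and 5 were lower at an unadjusted p under 0.05. Over all genes tested 60.1% were lower in the mean and 1.64% were lower at that p. In either direction 2.68% had that p, and 0% passed the adjusted threshold. The acute phase list was chosen with earlier results of these data known, so these counts are descriptions and not a test. The mean of 5 Kupffer cell markers, genes of the liver's macrophages, was also lower on each Vascepa array (6.14 to 6.59) than on any vehicle array (6.65 to 6.77). Groups did not overlap in 8.24% of single genes tested. From vehicle to Vascepa mean, Vsig4 went from 7.56 to 7.03, Cd68 from 5.96 to 5.42 and Timd4 from 5.78 to 5.24. Clec4f (7.28 to 7.20) and Cd5l (6.92 to 6.79) differed less. The part of Kupffer cells in the acute phase values was not tested. Il1rn and Orm2, of the acute phase list, differed by −0.62 ± 0.19 and −1.28 ± 0.46.

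Lists of sex-biased liver genes were counted because several Cyp3a genes have a female bias. They too were chosen with earlier results of these data known, so their counts beside those of all genes are descriptions and not a test. Of 18 female-biased genes tested 17 were lower, at a median of −0.58, and of 20 male-biased genes 16 lay higher (median 0.19). The filter used the mean of all 6 arrays, and Hao2 averaged above it in vehicle (3.25) and under it in Vascepa livers (2.58). Without the filter the female-biased median was −0.28. Leaving out Vascepa replicate 1 gave a male-biased median of 0.011 and leaving out Vascepa replicate 3 gave 0.59, and relative to the vehicle mean it lay at 1.03, 0.49 and −0.73 on Vascepa replicates 1, 2 and 3. No member of either list passed the adjusted threshold by limma, and at an unadjusted p under 0.05 there were 6 lower female-biased and 2 higher male-biased genes. Over all genes 60.1% were lower in the mean, 1.64% were lower at that p, and 2.68% had that p in either direction. Abcd2 and Cyp2b13, of the female-biased list, differed by −1.39 ± 0.23 and −1.87 ± 0.32, and Mup21 and Hsd3b5, of the male-biased list, by 0.70 ± 0.28 and 1.50 ± 0.62. Beside these, the probe of Cyp3a44 differed by 0.016 and the shared probes that name it by −0.16 and −0.15. The Cyp3a44 probe lay under the filter, where a fall could hardly show, and the shared probes also name Cyp3a11. Whether Cyp3a44 changed with the female-biased genes was not tested.

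The genes whose course over the 6 arrays was most like that of each Cyp3a gene were found among 13489 others by Pearson r, as a description. Among so many genes on 6 arrays a high r can arise without any shared control, which was not tested. For Cyp3a11 they were Rnf139 (r = 0.996), Gypc (r = 0.990) and Synj2bp (r = 0.973), and 52 genes exceeded 0.9. For Cyp3a25 they were Hsf4 (r = 0.997), Mup3 (r = 0.988) and Gna15 (r = 0.978), and 91 exceeded 0.9. These genes varied little. From lowest to highest array, Rnf139, Gypc and Synj2bp spanned 0.45, 0.56 and 0.49 on the log2 scale. Hsf4, Mup3 and Gna15 spanned 0.43, 0.11 and 0.44. For Cyp3a13 they were Drg2, Sardh and Mfsd5 (r = 0.999, 0.999 and 0.998), and 1710 exceeded 0.9. On the array where Cyp3a13 stood lowest, Vascepa replicate 3, the whole profile also differed most from the others.

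Hepatocyte markers were bright in all samples, as the tissue label implies. All 8 hepatocyte markers lay above the filter, with an array mean between 10.61 and 11.22, lowest on Vascepa replicate 3. Array means of the Kupffer cell markers lay between 6.14 and 6.77, of sinusoidal and other endothelial markers between 6.19 and 6.49, and of stellate cell markers between 6.02 and 6.55. Cholangiocyte, pancreatic acinar and skeletal muscle means lay between 2.88 and 3.75, and the muscle mean was higher on each Vascepa array (3.17 to 3.37) than on any vehicle array (2.88 to 3.03). These levels were dim, and groups did not overlap in 8.24% of single genes tested. Of the muscle markers, Acta1, Ckm and Mb were higher in the Vascepa mean, and Myh4, under the filter, was lower (1.74 in vehicle, 1.51 in Vascepa livers). Of 5 intestinal markers, Fabp2 was bright, at 10.16 in vehicle and 10.35 in Vascepa livers, and the other 4 lay under the filter. Fewer cells of a type and less RNA per cell cannot be told apart in these bulk samples.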

How the data were processed

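Liver RNA of 6 samples was hybridised to Affymetrix arrays, 1 per sample. The authors deposited log2 expression values for 41345 probes, made with Affymetrix Expression Console and RMA per the submitters' processing notes (tool versions: not given in the sources used here). Its RMA step corrects background, quantile-normalizes arrays and summarises probes, which compresses differences of dim genes. Gene names came from the platform annotation, updated by gene ID through RefSeq (GRCm38.p6) for 23328 of 23521 single-symbol probes. 1814 probes had several symbols and 16010 none.

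Groups came from the sample titles. Each gene was represented by its single-symbol probe with the highest mean. limma 3.58.1 in R 4.3.3 compared Vascepa with vehicle over 13493 genes at or above the median intensity (2.65), with Benjamini-Hochberg adjustment. On simulated data with 200 changed genes it called 25.9% of those changed by a log2 value of 1 and 78% of those changed by 2. Of its calls there, 5.1% were false. Most true differences of a log2 value of 1 would thus go uncalled. Genes under the filter were fitted without it, and shared probes among 15130 named probes. Lists were described by counts and medians. Named genes were the Cyp3a genes, 7 regulators and partners, the 2 members with the smallest p in each list, and the 3 most similar genes over the arrays. The Cyp3a genes and the lists were chosen with earlier results of these data known. Alternatives were other filters, scalings, priors, weights, a replicate block, a small nucleolar RNA covariate and leaving out each array. Promoter windows were aligned with Biopython 1.88. Scan dates were unknown, and no batch test was made. The number of arrays limits the precision.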

Additional observations from a re-analysis of the deposited data

How the results depend on the processing

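Of 97 results for the 5 members that have their own probe, plus the 2 shared probes, under alternatives, 88 kept their direction and their side of the threshold, 9 turned and 0 gained a call. Other filters, the other prior, the replicate block and the mean of a gene's probes left these differences unchanged, so those settings could not turn one. Among genes above the filter, only the array-weight and covariate fits called any gene. The count of 88 is therefore no measure of how stable the results are. Cyp3a44 was −0.060 with centred arrays, −0.069 with quantile normalization again, −0.24 with array weights and −0.11 with the small nucleolar RNA covariate, and −0.19 to 0.26 with 1 array left out. Cyp3a11 was 0.062 with array weights and −0.33 to 0.024 with 1 array left out. Cyp3a57 was −0.041 with centred arrays, −0.010 with quantile normalization again and −0.12 to 0.16 with 1 array left out. Nr1i3 was 0.041 with quantile normalization again, 0.046 with array weights and −0.30 to 0.30 with 1 array left out. Rxra was 0.046 with the small nucleolar RNA covariate and −0.96 to 0.049 with 1 array left out. Cyb5a was −0.024 with centred arrays, −0.17 with the covariate and −0.14 to 0.29 with 1 array left out. Onecut1 was −0.11 with array weights, and Cyp2b10 ran from −0.24 to 0.91 with 1 array left out. The cause was not tested for any of these.

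Array weights came to 39.5 for Vascepa replicate 2 and 0.178 to 2.33 for the other arrays, so that array largely set the weighted Vascepa mean. The weighted fit called 4100 of the 13493 genes and the covariate fit called 2, both against 0. Neither set held Cyp3a11, Cyp3a13 or Cyp3a25. With weights Cyp3a59 (−1.19, adjusted p = 0.00261) and Nr1i2 (−0.51, adjusted p = 0.00605, limma) were among the genes that passed, as were Rxra and Hnf4a. So were Cyb5b, Hmox1, Gstm3, Cyp8b1, Il1rn, Orm2, Abcd2, Cyp2b13, Mup21 and Hsd3b5. Nr1i3, Onecut1, Cyb5a, Abcc3, Cyp2b10 and Cyp2c70 did not pass with weights. The 362 genes at an unadjusted p under 0.05 became 757 without a filter, 106 with the 75th percentile filter, 5902 with array weights, 818 with the covariate, and 141 (without vehicle replicate 3) to 2018 (without Vascepa replicate 1) with 1 array left out. Of them 39.0% were higher, and 16.9% with centred arrays. Centring moved the median of all genes from −0.063 to −0.14.

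The regulators' median ran from −0.53 to 0.048 with 1 array left out. That of the electron and heme partners was −0.21 with centred arrays, −0.065 with quantile normalization again, −0.073 with array weights and −0.17 to −0.079 with 1 array left out. The acute phase median was −0.49 with array weights. The female-biased median was −0.28 without a filter, −0.44 with the 75th percentile filter and −0.79 to −0.35 with 1 array left out.

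Deviations from the group mean correlated across groups at 0.61, 0.11 and −0.13 for replicates 1, 2 and 3. Vehicle replicate 2 correlated with Vascepa replicate 3 at 0.57, above the values for same-numbered replicates 2 and 3 but not replicate 1. Deviations of 3 arrays from their own mean are tied to each other, so this check cannot decide whether samples were paired. No pairing was assumed. With the replicate number as a block, limma called 0 genes and 438 had an unadjusted p under 0.05, and Cyp3a25 differed by 0.58 (unadjusted p = 0.0210, adjusted p = 0.946). The 95% intervals of Cyp3a11, Cyp3a13 and Cyp3a25 all include 0 in the fit of 6 arrays without the block.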
